A study of Drosophila melanogaster with 2 samples.

Results

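The peaks described here are the intronic binding sites of tagged Hr83 that lay outside promoters but within 5000 bp of an annotated gene start. That start need not be the host gene's own. They were taken from the thresholded peak list on dm6 of a ChIP-seq study of Hr83, and 896 of its 4797 peaks (18.7%, 95% Clopper-Pearson interval 17.6 to 19.8%) met the rule. A summit had to lie more than 500 and at most 5000 bp from the nearest annotated transcription start site (TSS) of any gene, inside a gene, and in no annotated exon. The study used intact Drosophila melanogaster larvae at the wandering stage, with both sexes pooled. Their line, Hr83-GFP, is a stable transgenic stock whose Hr83 ends in GFP, and an anti-GFP antibody pulled the fusion protein and its DNA out of sonicated chromatin. All larvae carried the transgene, and the series held 1 group, with 2 biological replicates numbered 3 and 4. No source used here gives the promoter that drives the transgene or the tissues that make the protein, and a whole larva mixes all its cell types. The files gave a position and a signal for each peak but no read counts, so the depth is unknown and every interval covers counting error over peaks, bases or genes only.

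Nuclear receptors are transcription factors with a zinc finger DNA-binding domain, and Hr83 is an orphan member of the NR2E class, the class of tailless and dissatisfaction. Receptors of this class are known to bind half-sites with the letters AAGTCA. Introns close to a gene's start, the first intron above all, are a common place for enhancers in Drosophila, the short stretches of DNA where several factors bind together and set when and where a gene is transcribed. Such elements differ from promoters in their letters: housekeeping promoters often carry the DRE or core promoter Motif 1, while GAGA repeats are bound by the GAGA factor Trl, which helps to keep regulatory DNA free of nucleosomes.

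The windows around the summits of the 6 strongest peaks outside one chromosome arm that is not printed are shown first, because they carry the highest signals of the set. Each holds the 101 bases centred on the summit, on the plus strand of dm6, 5′ to 3′. Capitals mark a match to 1 of the motifs described later: the AP-1 site TGANTCA at osp, the reverse complement of the GATA site TGATAA at bun, the forkhead site TAAACA or its reverse complement at cno and at Ndfip and Krn, and the CTCF core AGNNGGCGC at ush. The osp window also holds the reverse complement of the NR2E half-site, left in lower case. No motif that was marked occurred in the window of lncRNA:CR32773.
osp, chr2L:14685764-14685864: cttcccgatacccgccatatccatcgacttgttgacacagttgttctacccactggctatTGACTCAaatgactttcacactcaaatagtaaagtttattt
lncRNA:CR32773, chrX:4610582-4610682: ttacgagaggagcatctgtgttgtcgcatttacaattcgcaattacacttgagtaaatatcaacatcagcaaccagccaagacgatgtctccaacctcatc
bun, chr2L:12497786-12497886: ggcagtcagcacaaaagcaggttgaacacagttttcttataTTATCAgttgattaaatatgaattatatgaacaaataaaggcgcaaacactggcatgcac
cno, chr3R:5215475-5215575: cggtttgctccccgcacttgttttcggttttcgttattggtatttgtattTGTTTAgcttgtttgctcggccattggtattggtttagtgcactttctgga
ush, chr2L:485818-485918: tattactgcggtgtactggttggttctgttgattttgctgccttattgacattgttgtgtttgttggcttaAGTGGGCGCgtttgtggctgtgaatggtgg
Ndfip and Krn, chr3L:17653596-17653696: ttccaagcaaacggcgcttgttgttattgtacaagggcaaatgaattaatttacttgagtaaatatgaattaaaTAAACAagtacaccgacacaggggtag

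Another 5 windows, again 101 bases on the plus strand, each show 1 remaining motif whose share was higher at these peaks in a comparison below. Each is the strongest peak, outside the arm not printed, whose 101 bases hold the motif, while the shares below use wider windows. Other motifs in these windows are left in lower case, among them forkhead hexamers and an E-box in aralar1. Capitals mark the GAGA repeat GAGAGAG in raw, the CA repeat CACACACA in Df31, the nuclear receptor half-site AGGTCA in aralar1, the Scalloped site CATTCC in a weaker peak of ush, and the control hexamer ACATGA, which holds the letters of the NR2E half-site in another order, in CG3726.
raw, chr2L:8718027-8718127: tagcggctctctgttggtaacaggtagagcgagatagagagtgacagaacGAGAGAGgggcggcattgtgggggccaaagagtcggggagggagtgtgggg
Df31, chr2L:21629278-21629378: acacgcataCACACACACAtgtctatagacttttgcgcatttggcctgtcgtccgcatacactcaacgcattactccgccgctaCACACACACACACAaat
aralar1, chr3R:30454515-30454615: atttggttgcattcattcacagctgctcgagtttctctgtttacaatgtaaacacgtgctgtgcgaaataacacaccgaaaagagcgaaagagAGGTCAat
ush, chr2L:481086-481186: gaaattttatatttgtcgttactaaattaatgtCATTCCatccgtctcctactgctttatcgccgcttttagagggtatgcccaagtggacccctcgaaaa
CG3726, chrX:5918866-5918966: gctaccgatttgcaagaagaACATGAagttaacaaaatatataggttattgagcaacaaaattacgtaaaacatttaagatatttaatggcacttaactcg

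The strongest of these peaks lay in the first intron of osp (outspread, FBgn0003016), at chr2L:14685716-14685914 and 3526 bp from the nearest TSS. Its pooled signal of 1107 was the third highest of the whole list, and its rank was 3 in replicate 3 (signal 440) and 2 in replicate 4 (signal 665). The next was in the noncoding gene lncRNA:CR32773 (FBgn0052773; chrX:4610536-4610734), with a pooled signal of 864, rank 4 in replicate 3 (signal 414) and rank 6 in replicate 4 (signal 483). Both replicates therefore placed both of these peaks among their 6 strongest regions. The peak in bun (bunched, FBgn0259176; chr2L:12497752-12497941), which encodes a growth-promoting factor of the TSC22 family, had a pooled signal of 655, with 291 in replicate 3 and 373 in replicate 4. It lay 503 bp from the nearest TSS, which belongs to the nested gene t-cup. The peak in cno (canoe, FBgn0259212; chr3R:5215440-5215613), encoding the afadin-like scaffold of adherens junctions, had a pooled signal of 652, with 340 in replicate 3 and 339 in replicate 4. In ush (u-shaped, FBgn0003963; chr2L:485773-485965), which encodes the Friend-of-GATA zinc finger protein, the strongest peak reached 605 in the pooled list, 295 in replicate 3 and 302 in replicate 4. It lay 4967 bp from a TSS, close to the outer limit. The peak shared by the overlapping genes Ndfip, an adaptor of Nedd4 ubiquitin ligases, and Krn (Keren), a ligand of the EGF receptor, stood at chr3L:17653564-17653731 with 604 in the pooled list, 301 in replicate 3 and 304 in replicate 4. These 6 peaks were all among the strongest 20 of the whole list, and each was among the 23 strongest regions of both replicates.

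The remaining 14 of the 20 strongest had pooled signals between 542 and 335. Their hosts were CG46385, smash (an adaptor protein of apical cell junctions), CG9837, LPCAT (a lysophospholipid acyltransferase), CG9663, SCaMC and aralar1 (mitochondrial carriers), Fem-1 (an adaptor of a ubiquitin ligase), Ndae1 (a sodium-driven anion exchanger), Ire1 (the sensor kinase and nuclease of the unfolded protein response), CG11050, crb (the apical polarity determinant Crumbs), Lk6 (a kinase of the translation initiation factor eIF4E) and sbb (a transcriptional corepressor). In all, 19 of the 20 were within the 200 strongest regions of both replicates. The exception was CG11050 on 2L, whose peak had rank 40 in replicate 3 (signal 203) and rank 1936 in replicate 4 (signal 64.1). That peak also sat in an intron of only 140 bp, 62 bp from a splice site. A first intron held 18 of the 20, beside 80.4% of the whole set. The exceptions, Ire1 and CG11050, had their peak in intron 2. Of the 20, 10 lay more than 1000 bp from any TSS, while only 31.5% of the whole set lay within 1000 bp of one.

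**Figure D1:**
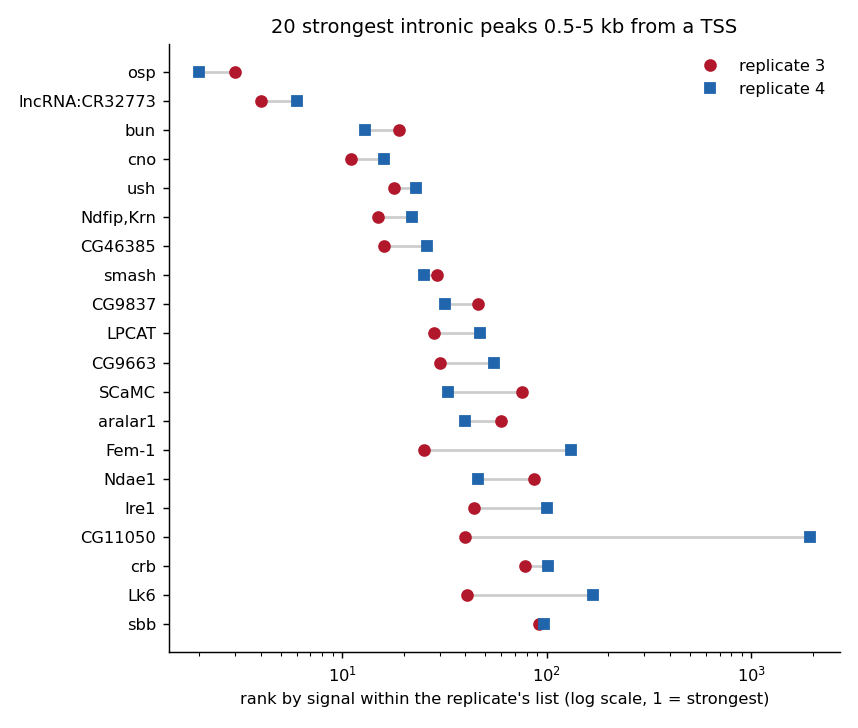
Rank by signal (log scale) of the 20 strongest intronic peaks in the lists of replicate 3 (circles) and replicate 4 (squares), with host genes from the strongest peak at the top. The grey lines join the replicates, and CG11050 has the longest, with rank 40 in replicate 3 and 1936 in replicate 4.

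Over the whole set, pooled signals ran from 63.4 to 1107 with a median of 91.1 and quartiles of 74.2 and 124. The median was 86.2 at the 320 intronic peaks farther than 5 kb from a TSS, 96.7 at the 3086 promoter peaks (summit within 500 bp of a TSS) and 93.8 over all 4797. The set's share of the list was 17.0% (163 of 960) in the strongest of 5 equal bins of signal, 17.7%, 18.2% and 19.7% in the next ones, and 20.8% (199 of 959) in the weakest. The set supplied 6 of the strongest 20 peaks and 24 of the strongest 100, beside 18.7% of the whole list, a difference that was not tested. Most peaks had the list's full width of 256 bp, and 90 (10.04%) were narrower, against 251 (8.13%) of the promoter peaks. At the distance limits, the innermost members were bun at 503 bp (signal 655) and Magi at 505 bp (63.4), and the peaks just below the limit were Ptip at 499 bp (147) and the Kdm3 and CG8176 peak at 499 bp (88.3). The outermost were cv-c at 4989 bp (100.1) and CG46339 at 4987 bp (69.6), and just beyond came Mef2 at 5014 bp (116) and Smr at 5015 bp (204).

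Agreement between replicates was judged from the 4797 strongest regions of each replicate's own list, the size of the thresholded list, with an overlap of at least 1 bp. Of the 896 peaks, 648 (72.3%, interval 69.3 to 75.2%) overlapped such a region in replicate 3 and 690 (77.0%, 74.1 to 79.7%) in replicate 4. Both replicates held 493 (55.0%, 51.7 to 58.3%), against 60.9% of all thresholded peaks, 64.5% (62.7 to 66.1%) of the promoter peaks and 52.8% (47.2 to 58.4%) of the intronic peaks beyond 5 kb. The intervals of the described set and of the promoter peaks did not overlap, while those of the intronic sets did. Only replicate 3 held 155 and only replicate 4 held 197, and 51 (5.69%) were in the strongest 4797 of neither, against 2.88% of promoter peaks. With the complete lists of 30000 regions, 875 of the 896 were found in both. Of the stronger 448 peaks by pooled signal, 387 (86.4%) were in both replicates' strongest regions. Of the weaker 448 there were 106 (23.7%), and of the 100 strongest all 100. The pooled signal and the thresholded list were made from these same replicates. A rise of agreement with pooled signal was therefore built in, and these shares are a description only. Across the 875 peaks found in both complete lists, Spearman's rank correlation between the replicates' signals was 0.36, beside 0.42 over 3018 promoter peaks and 0.31 over 312 intronic peaks beyond 5 kb. These correlations are across peaks of the same libraries, which are not independent replicates.

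The peaks thinned out with distance from the TSS. Their distances ran from 503 to 4989 bp with a median of 1508 bp. Per Mb of intronic sequence at the same distance there were 63.9 peaks (95% Poisson interval 56.7 to 71.9) in the bin from 500 to 1000 bp, 40.03 (35.5 to 45.0) from 1000 to 2000 bp, 27.2 from 2000 to 3000 bp, 27.6 from 3000 to 4000 bp and 20.002 (15.6 to 25.3) from 4000 to 5000 bp. Over the whole range the density was 36.5 per Mb (34.1 to 39.0), against 11.3 (10.1 to 12.6) in intronic sequence beyond 5 kb. The bins at either side of the outer limit did not differ beyond their intervals, with 20.002 inside it and 17.7 (15.3 to 20.4) from 5000 to 10000 bp, and the density was 7.20 (5.99 to 8.59) farther out. The 5 kb limit therefore did not mark a step.

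The pooled list of 30000 regions also held 6301 weaker regions in introns over the same distances that overlapped no thresholded peak, with a median signal of 26.1. Their density fell with distance too, with 336 per Mb from 500 to 1000 bp and 197 from 4000 to 5000 bp. Of the thresholded peaks and weaker regions together, the thresholded made up 12.4% (11.7 to 13.2%) over these distances inside introns, against 16.0% over regions of every class and 8.49% (7.62 to 9.43%) in introns beyond 5 kb. That share was 15.99% from 500 to 1000 bp and 9.20% from 4000 to 5000 bp. On the X chromosome there were 28.1 peaks per Mb (23.6 to 33.2; 136 peaks), against 38.6 (35.9 to 41.4; 760 peaks) on the autosomes. The weaker regions were also sparser on X, at 194 per Mb against 272, and the thresholded share was alike at 12.6% on X and 12.4% on the autosomes. Chromosome 4 held a single peak in 316 kb of such sequence, 3.17 per Mb with an interval of 0.0802 to 17.6.

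**Figure D2:**
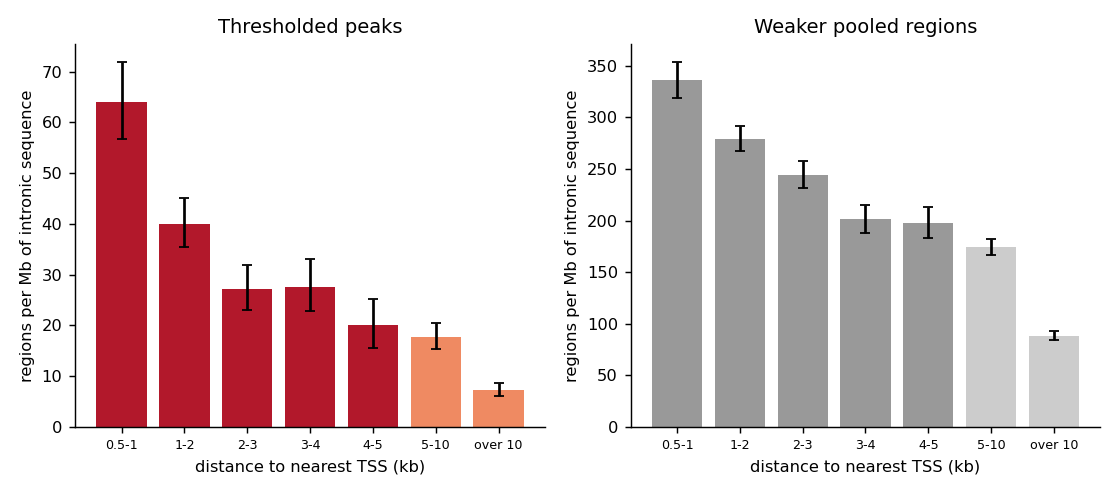
Regions per Mb of intronic sequence by distance of the summit to the nearest TSS, for thresholded peaks (left) and weaker pooled regions (right), with 95% Poisson intervals. The darker bars cover the described range up to 5000 bp, where the nearest bin has 63.9 and the farthest 20.002 thresholded peaks per Mb.

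First introns held a larger share of these peaks than of the weaker regions, with intervals that did not overlap. Of the 896 peaks, 720 (80.4%, 77.6 to 82.9%) lay in the first intron of at least 1 transcript of the host gene, against 68.7% (67.6 to 69.9%) of the weaker regions. By the longest transcript alone the shares were 62.6% and 50.4%. The host was protein coding for 881 peaks (98.3%), against 98.7% of the weaker regions. The summit lay downstream of the nearest TSS for 598 peaks (66.7%) and upstream of it for 298 (33.3%), against 66.9% downstream for the weaker regions, and the nearest TSS belonged to the host gene for 716 (79.9%), against 75.1%. The TSS nearest to the summit carried a thresholded promoter peak of its own for 467 peaks (52.1%, 48.8 to 55.4%), against 34.7% (33.5 to 35.9%) of the weaker regions. A splice site within 100 bp was found for 37 summits (4.13%), against 9.33%. The introns themselves had a median length of 7959 bp, against 9019 bp. The weaker regions differ from the peaks in distance to the TSS as well, and the part of distance in these differences was not tested.

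Sequence was compared in windows of 200 bp centred on the summit, searched on both strands for 18 short motifs, with two-sided Fisher's exact tests over peaks against 3 sets and Benjamini-Hochberg adjustment over all 54 tests. Peaks are not replicates, so the tests describe the lists and not the variation between larvae. GAGA repeats (GAGAGAG, in 11.97% of all thresholded peaks) were in 142 windows (15.8%, 13.5 to 18.4%), against 5.57% (5.02 to 6.17%) of the weaker intronic regions, a log2 odds ratio of 1.68 ± 0.15 (SE, adjusted exact p = 1.1e-22). CA repeats (CACACACA, 10.6% of all peaks) were in 140 windows (15.6%, 13.3 to 18.2%), against 8.71% of the weaker regions (log2 odds ratio 0.96 ± 0.15, adjusted exact p = 8.7e-09). Both were also commoner than at promoter peaks, where GAGA repeats were in 10.7% (0.66 ± 0.16, adjusted exact p = 3.3e-04) and CA repeats in 8.49% (1.00 ± 0.16, adjusted exact p = 2.6e-08). The shares of both repeats were higher here in each of those sets with either replicate left out. Both repeats were in 32 windows, and at least 1 was in 250 (27.9%). Mean GC content was 45.3%, against 43.6% at the weaker regions and 44.2% at promoter peaks, and 16.5% of the bases were soft-masked repeats, against 15.4% and 14.6%. The part of base composition in the motif shares was not tested.

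Core promoter letters were nearly missing. The DRE (TATCGATA, 6.48% of all peaks), bound by DREF, was in 2 windows (0.223%, 0.0270 to 0.804%), against 9.79% of promoter peaks (log2 odds ratio -5.28 ± 0.92, adjusted exact p = 2.7e-30). Motif 1 (GTCACACT, 3.84% of all peaks), bound by M1BP, was in 5 (0.558%, 0.181 to 1.30%), against 5.67% (-3.29 ± 0.63, adjusted exact p = 6.0e-13). The weaker intronic regions had the DRE in 0.349% and Motif 1 in 0.444%, and neither differed from the peaks by the test. The E-box CAGCTG (15.8% of all peaks) was less common than at promoters, in 13.2% against 17.0% (-0.43 ± 0.16, adjusted exact p = 0.022), a call that was lost in windows of 100 bp and with replicate 3 left out.

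Sites of several factors with known roles in larval tissues were commoner than at promoter peaks. GATA sites (TGATAA, 14.2% of all peaks) were in 166 windows (18.5%), against 12.5% (0.67 ± 0.15, adjusted exact p = 9.5e-05), a call lost among the 2398 strongest of the list (0.51, adjusted exact p = 0.076). AP-1 sites (TGANTCA, 4.38%), bound by Jra and kay, were in 63 (7.03%), against 3.66% (1.00 ± 0.23, adjusted exact p = 3.2e-04), also lost there (0.79, adjusted exact p = 0.11). Scalloped sites (CATTCC, 7.75%) were in 90 (10.04%), against 6.51% (0.68 ± 0.19, adjusted exact p = 0.0035). That call was lost with replicate 4 left out (8.59% against 6.64%, 0.41, adjusted exact p = 0.14) and in windows of 100 bp (0.18, adjusted exact p = 0.84). The half-site AGGTCA of many nuclear receptors (3.00%) was in 39 (4.35%), against 2.53% (0.82 ± 0.29, adjusted exact p = 0.026), a call lost with replicate 3 left out (3.83% against 2.75%, 0.51, adjusted exact p = 0.26). The shuffled control ACATGA (5.65%) was also higher, in 63 (7.03%), against 4.57% (0.67 ± 0.23, adjusted exact p = 0.020), a difference as large as those of GATA and Scalloped sites. None of these 5 passed against the weaker intronic regions, which lie in the same kind of sequence. Several of these 5 calls against promoters were also lost with peaks over 1000 bp from a TSS. The NR2E half-site AAGTCA (8.65% of all peaks), the letters known for this receptor class, was in 74 windows (8.26%, 6.54 to 10.3%), against 8.33% of promoter peaks, 10.6% of intronic peaks beyond 5 kb and 11.5% (10.7 to 12.3%) of the weaker regions. It was lower than in the last of these (-0.52 ± 0.18, adjusted exact p = 0.017), a call that did not hold in windows of 100 bp (-0.22, adjusted exact p = 0.68) or 400 bp (-0.23, adjusted exact p = 0.22), nor with replicate 4 left out (-0.40, adjusted exact p = 0.072). The CTCF core AGNNGGCGC (3.98% of all peaks) was in 34 windows (3.79%), against 2.14% of the weaker regions (0.86 ± 0.28, adjusted exact p = 0.020), and this call was lost in windows of 100 bp (adjusted exact p = 0.063). With peaks over 1000 bp from a TSS, neither the CTCF call nor the AAGTCA call held.

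Against the 320 intronic peaks farther than 5 kb from a TSS, none of the 18 motifs differed by Fisher's exact test after adjustment, and 0 had an unadjusted p under 0.05. The shares there were 11.6% (8.27 to 15.6%) for GAGA repeats and 14.7% (11.0 to 19.0%) for CA repeats, within the error of those at the nearer peaks. The difference for GAGA repeats had a log2 odds ratio of 0.51 ± 0.28 (adjusted exact p = 0.19). With 320 peaks in that set, a difference of this size did not pass, which does not show that the sets are alike.

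**Figure D3:**
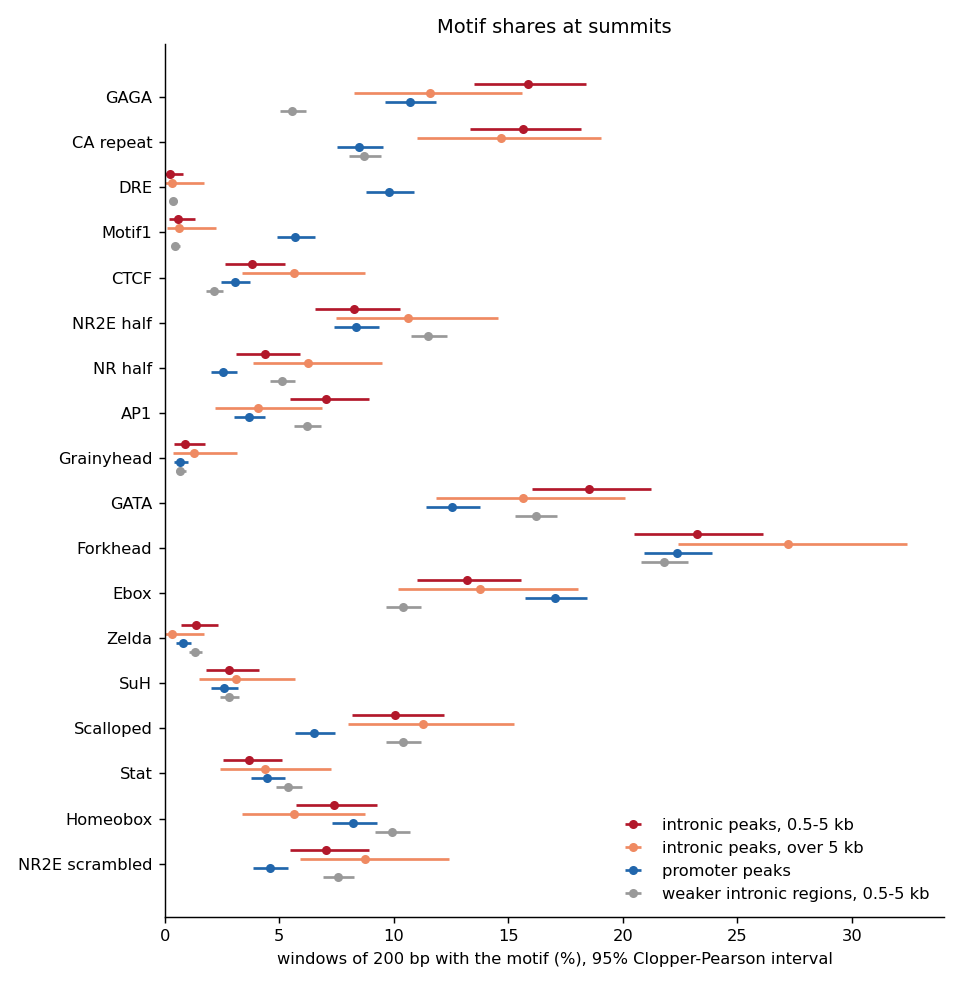
Share of 200 bp windows with each of 18 motifs, with 95% Clopper-Pearson intervals, for the intronic peaks at 0.5 to 5 kb (dark red), intronic peaks beyond 5 kb (orange), promoter peaks (blue) and weaker intronic regions (grey). GAGA and CA repeats lie near 16% at the described peaks, and the DRE and Motif1 are frequent in the promoter set alone; SuH, Zelda, Stat, Homeobox and Grainyhead gave no call.

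The forkhead hexamer TAAACA (22.8% of all peaks), part of the sites of fkh and foxo, stood apart at the top of the ranking. It was in the windows of 13 of the 20 strongest intronic peaks (65.0%, 40.8 to 84.6%), in 9 of the next 30 (30.0%), in 12 of the next 50 (24.0%) and in 174 of the other 796 (21.9%, 19.0 to 24.9%). Over the whole set the share was 23.2%, against 27.2% at intronic peaks beyond 5 kb, 22.4% at promoter peaks and 21.8% of the weaker regions, with no call by the test. Among intronic peaks beyond 5 kb it was in 9 of the 20 strongest (45.0%, 23.1 to 68.5%), and among promoter peaks in 4 of the 20 strongest (interval 5.73 to 43.7%). This look along the ranking was chosen after the values of the strongest peaks were seen, so it is a description and carries no test. AP-1 sites were in 4 of the 20 strongest, GAGA repeats in 2, CA repeats in 1 and AAGTCA in 3.

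The same hexamer was gathered at the summits. Of its 623 hits within 250 bp of a summit, 183 (29.4%, 25.8 to 33.1%) lay within 50 bp, where an even spread would give 20%. The share was 31.5% at intronic peaks beyond 5 kb, 18.1% (16.5 to 19.8%) at promoter peaks and 23.2% at the weaker regions. The E-box was gathered as well, with 82 of 270 hits (30.4%, 24.9 to 36.2%), against 29.2% at promoter peaks and 23.3% at the weaker regions. The CTCF core had 25 of 74 hits there (33.8%, 23.2 to 45.7%), against 37.5% at intronic peaks beyond 5 kb, 30.05% at promoter peaks and 21.5% at the weaker regions. GAGA repeats had 154 of 575 hits within 50 bp (26.8%, against 26.4% at promoter peaks and 23.4% at the weaker regions) and CA repeats 194 of 746 (26.0%, against 24.3% and 26.4%), where overlapping hits in 1 long repeat were each counted. The half-sites AAGTCA, with 21.1%, and AGGTCA, with 20.9%, were spread nearly evenly around the summits.

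**Figure D4:**
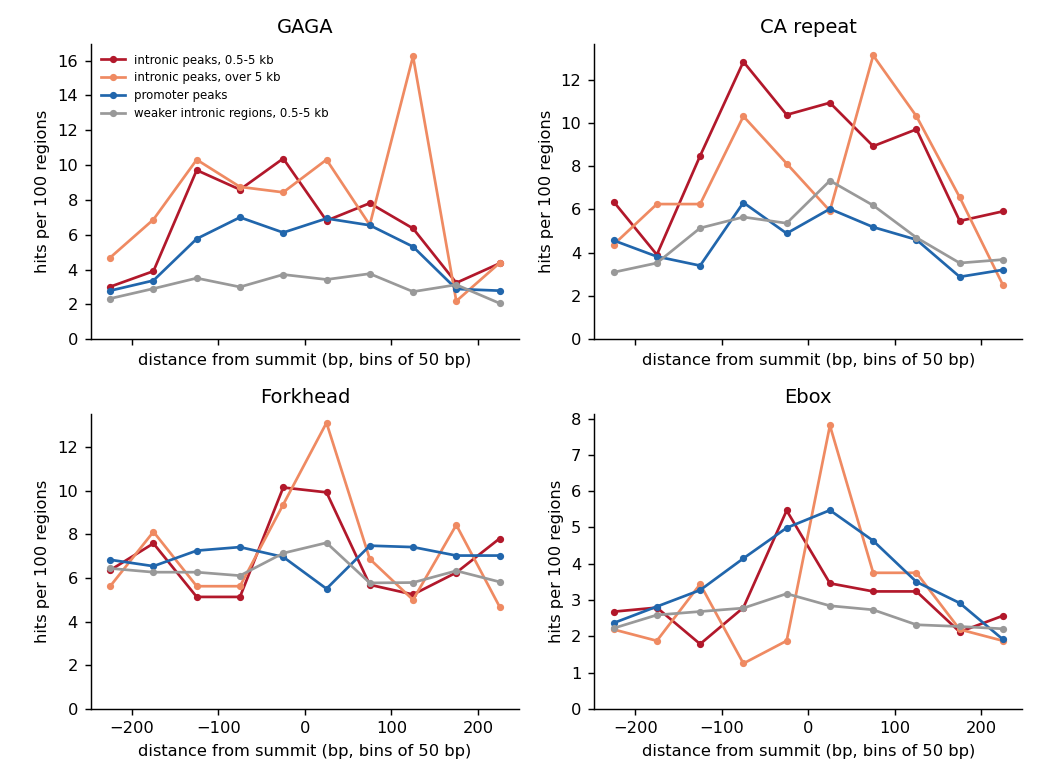
Motif hits per 100 regions in bins of 50 bp from 250 bp before to 250 bp after the summit, for GAGA repeats, CA repeats, the forkhead hexamer and the E-box, in the 4 sets. The forkhead curve of the described peaks (dark red) rises at the 2 central bins, where 29.4% of its hits lie, while the promoter curve does not.

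A protein-coding gene was counted as holding a peak when a summit lay inside it. Of 9101 genes with intronic sequence at the required distance, 617 (6.78%) held at least 1. Of these, 432 held 1 peak, 117 held 2 and 39 held 3, and the 185 genes with 2 or more covered 484 of the 896 peaks. The chance to hold one grew with length: of 3 equal groups of genes by such sequence, 17.6% held a peak in the longest, 2.71% in the middle and 0.0657% in the shortest. Gene groups are therefore described by density as well as by number of genes, beside 36.9 peaks per Mb (34.6 to 39.3) over all eligible genes. Density was not even either, at 36.4 per Mb in the longest group, 49.0 in the middle and 7.03 in the shortest. It also fell with distance from the TSS, and the part of both in the list densities was not tested.

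The gene with the most peaks was EcR (FBgn0000546; chr2R:6087873-6169087), which encodes the receptor of the moulting hormone ecdysone, with 9 in 28.2 kb of eligible sequence. Their pooled signals ran from 80.6 to 174 with a median of 136, their signals in replicate 3 from 18.3 to 81.0 with a median of 46.1, and in replicate 4 from 50.7 to 125 with a median of 84.2. Of the 9, 7 were among the strongest regions of both replicates, 8 lay outside a first intron, and several had a tRNA gene nested in EcR as their nearest TSS. Eip75B (FBgn0000568; chr3L:17950953-18064696), a nuclear receptor induced by ecdysone, held 8 with signals from 69.0 to 143, of which 4 were among the strongest of both replicates and 1 was missing from the list of replicate 3. GAGA repeats were in 5 of its 8 windows and CA repeats in 5, beside 15.8% and 15.6% over the whole set. The zinc finger gene shn (Schnurri, FBgn0003396; chr2R:11159086-11217394), which acts in Dpp signalling, held 8 with signals from 73.6 to 152, 6 of them in both replicates' strongest regions. Tlk (Tousled-like kinase, FBgn0283657; chrX:3720007-3789770) held 7, all in a first intron, with signals from 70.9 to 288. The gene atos (FBgn0033638; chr2R:11619479-11640941) held 7 in 11.9 kb, also all in a first intron, with signals from 68.6 to 119. Several peaks in 1 gene thus shared a host, and 90 pairs of neighbouring peaks lay within 1 kb of each other. In these genes other than Eip75B, windows with GAGA and with CA repeats numbered 1 and 0 in EcR and 1 and 2 in shn. They numbered 3 and 1 in Tlk, and 2 and 3 in atos.

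Among gene groups, those of the ecdysone response held many. Of 24 genes on that list, 12 (interval 29.1 to 70.9%) held a peak, against 6.78% of all eligible genes, and their 47 peaks gave 138 per Mb (101 to 183). Beside EcR and Eip75B, the list was led by vri, which encodes a bZIP repressor of the circadian clock, with 5 peaks and a strongest signal of 219, and by br (Broad), a transcription factor of metamorphosis, with 6 peaks and 140. All 6 peaks of br also lay inside Mur2B, a gene on the other strand that spans br. The strongest peak of vri had rank 1719 in replicate 3 and 92 in replicate 4. Of 18 nuclear receptor genes, 5 held one (22 peaks, 102 per Mb), and Hr4 (134) and Eip78C (126) followed EcR and Eip75B, which both lists share. Of 12 clock genes, 4 held one (102 per Mb).

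Of 21 genes of insulin and TOR signalling, 8 (38.1%) held a peak and the density was 156 per Mb (80.7 to 273). They were led by Akt, the central kinase of the pathway (strongest signal 291), InR, the insulin receptor (199, 4 peaks), ImpL2, a secreted antagonist (114), and Pi3K21B, the regulatory subunit of the lipid kinase (100.3). Of 21 genes of the EGF receptor pathway, 9 (42.9%) held one, at 145 per Mb (88.6 to 224). Its ligands Krn (604) and spi (117), the receptor Egfr (116, 4 peaks) and the ETS repressor aop (143, 6 peaks) led. Of 19 Dpp and activin genes, 5 held one, at 105 per Mb (60.2 to 171), including the receptors tkv (189) and wit (169), and Dad, an inhibitor of the pathway (149, 3 peaks). The Wingless list had 6 of 18 genes and 50.5 per Mb (21.8 to 99.4), with strongest signals from 74.2 to 93.5 among its leaders sgg, Wnt4, nkd and fz2. Among the 2398 strongest of the list, 0 of these 18 genes (0 to 18.5%) held a peak, against 3.74% of all eligible genes. The Notch list had 4 of 16, led by mam (151, 5 peaks) and N (142), the Hippo list 3 of 15, led by crb (341) and ex (144), and the Hedgehog list 1 of 8, its receptor ptc (147). The intervals of these last 4 lists reached the density over all genes. With replicate 3 left out, 8 Dpp and activin genes and 2 Hedgehog genes held a peak, the second list at 84.1 per Mb in place of 42.1. With replicate 4 left out 5 Hippo genes did, and 9 Wingless genes at 75.7 per Mb (39.1 to 132). Over all eligible genes the share holding a peak was 6.88% without replicate 3 and 7.20% without replicate 4.

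Of 22 genes of junctions and polarity, 8 held one, at 64.7 per Mb, an interval (33.4 to 113) that reaches the 36.9 over all genes, led by cno (652), crb (341), cora (126) and pyd (80.7). Of 15 genes of fat storage and metabolism, 9 (60.0%, 32.3 to 83.7%) held one, at 195 per Mb (112 to 317), led by the zinc finger gene sug (131), the lipid droplet gene Lsd-2 (109), the lipin gene Lpin (106) and the lipase gene bmm (103). Chromatin genes had 5 of 16 and 202 per Mb (96.7 to 371), where the overlapping HmgD and HmgZ shared the strongest peak (230), and Trl, the gene of the GAGA factor, held 3 (135). The shared peak entered this density once for each of its host genes, which the interval does not allow for. Polycomb and trithorax genes had 7 of 26 and 109 per Mb (59.8 to 184), led by osa (179), tna (141), Trl and trx (132). The forkhead factors had 3 of 8 and 267 per Mb (115 to 526), of which CHES-1-like held 6 of the 8 peaks, while jumu (82.1) and foxo (81.9) held 1 each.

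The lists of axon guidance, neuronal channels and homeotic genes had densities wholly below that over all genes. Of 30 genes of axon guidance and cell adhesion, 3 held a peak, NetB (260), Ten-a (101) and sli (64.6), which gave 6.07 per Mb (1.25 to 17.7) over 494 kb. Of 20 genes of neuronal channels and synapses, elav (289) and Rbp9 (66.1), which encode RNA-binding proteins, held 1 each, at 7.30 per Mb (0.884 to 26.4). The 8 homeotic genes held 0 in 101 kb, with an upper limit of 36.5 per Mb, just under the 36.9 over all genes. The list of imaginal disc selector and patterning factors had 2 of 39, ush and Dr, at 18.8 per Mb (6.89 to 40.8). Muscle genes had 2 of 20, Mef2 (93.4) and Msp300 (70.3), at 15.5 per Mb (1.88 to 56.0). Both intervals reach the density over all genes. With replicate 3 left out, 4 selector and patterning genes (28.1 per Mb) and 3 muscle genes (31.0 per Mb) held a peak. With either replicate left out 1 neuronal gene did (3.65 per Mb). Of all eligible genes, 6.88% held a peak without replicate 3 and 7.20% without replicate 4. Glial genes had 3 of 11 and 54.1 per Mb (11.1 to 158), led by loco (315). Genes of cell death and autophagy had 3 of 13 and 57.0 per Mb (15.5 to 146), led by bun (655), and 114 per Mb with replicate 4 left out. Cell cycle genes had 1 of 16, E2f1, with 3 peaks up to 101, and 58.6 per Mb (12.1 to 171). The cytosolic ribosomal protein genes held 0 in 25 genes, but had only 5.27 kb of eligible sequence, and the upper limit was 701 per Mb. In all, 18 of 24 lists had a density above that over all genes, 10 with an interval wholly above it and 3 wholly below it. The intervals take peaks as independent, although many shared a gene, as did the 9 of EcR and 8 of Eip75B among 22 nuclear receptor peaks. They are therefore too narrow for differences between genes. The lists hold well-studied genes and some overlap, and they were chosen with earlier results of these data known, so these counts describe the lists and single none of them out.

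**Figure D5:**
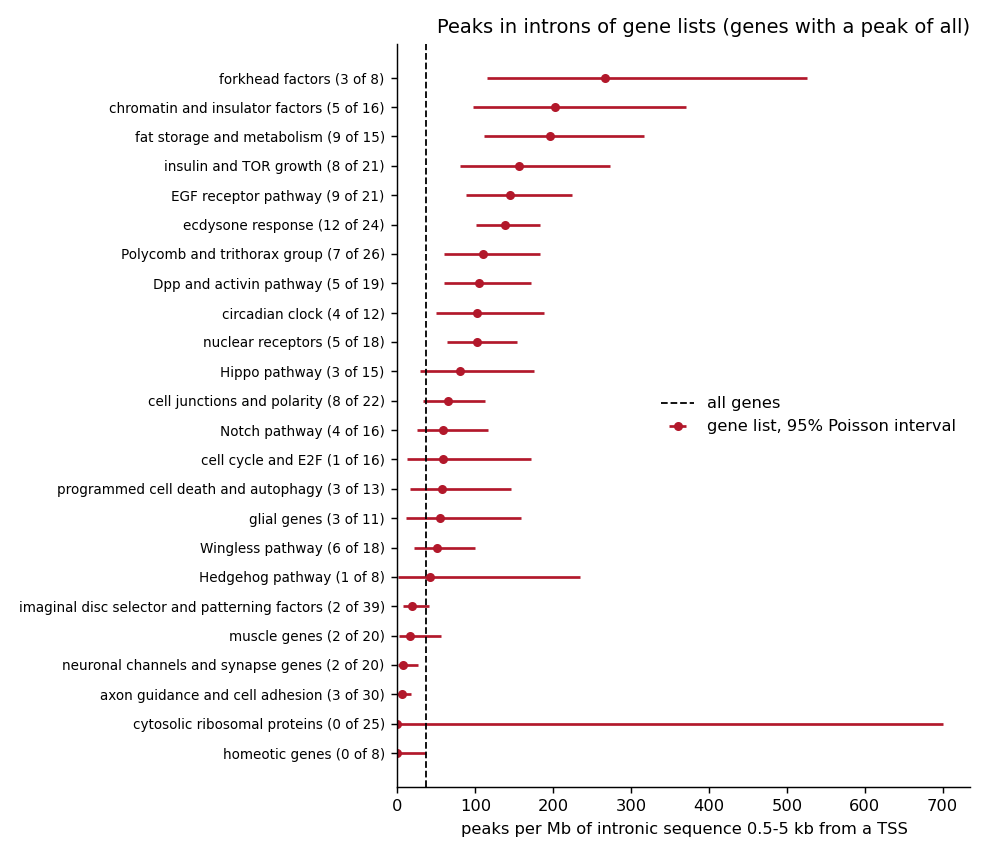
Peaks per Mb of intronic sequence at 0.5 to 5 kb from a TSS for 24 gene lists, with 95% Poisson intervals and the number of genes holding a peak in brackets. The dashed line is the density over all eligible genes, 36.9 per Mb, and the lists of axon guidance and neuronal channels lie below it at 6.07 and 7.30 per Mb.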

How the data were processed

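Hr83-GFP larvae formed the only group, with biological replicates 3 and 4 of the sample descriptions. The labels do not say how the replicates arose, and no p-value was computed across them.

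The authors deposited lists in a narrowPeak layout without headers: 1 relaxed list per replicate, 1 on both replicates pooled and 1 thresholded list, on dm6. Per the notes deposited with the samples, calling used a control alignment, and an irreproducible discovery rate comparison of the lists gave the thresholded one. No source used here names the aligner or the peak caller. The deposited signal is the authors' own value per peak, not normalized between lists, and served only for description and ranking inside a list. The deposited −log10 q-value had a ceiling of 3.86, shared by 653 of the 896 peaks, and was not used for ranking.

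Summits were classified on Ensembl release 115 annotation of the same assembly, leaving out annotated transposable element insertions as genes. Densities divide peaks by the intronic bases in the same distance range. For genes and gene lists, peaks and bases were counted per gene, so a peak in overlapping genes entered once for each. Python 3.11.15 with numpy 2.4.6, scipy 1.17.1, pandas 2.3.3 and statsmodels 0.14.6 was used. For log2 odds ratios each cell was raised by 0.5, and the threshold on adjusted p was 0.05. The counting was tested on simulated data. The text names the host genes of the 20 strongest peaks, the 5 genes holding most, and up to 4 genes per list with the strongest peak. The look along the ranking at other motifs, and genes named outside this rule, were chosen after their values were seen. The members, lists and motifs were chosen with earlier results of these data known. Of 481 list entries, 20 matched no annotated gene, and 1 further list is not reported here. Sequences are from the genome of dm6. Alternatives were other distance limits, windows and overlap rules, the 2398 strongest peaks of the list, and each replicate alone.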

Additional observations from a re-analysis of the deposited data

How the results depend on the processing

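The repeat calls against promoters and weaker regions, and the DRE and Motif 1 calls against promoters, kept their direction and passed under all 7 alternatives tried for motifs; no result reversed. Calls against promoters numbered 6 in place of 10 with those among the 2398 strongest of the list. They also numbered 6 with peaks over 1000 bp from a TSS. At both settings the losses fell among the E-box, GATA, AP-1, Scalloped, AGGTCA and shuffled control calls. With peaks over 1000 bp from a TSS, calls against weaker regions numbered 2 in place of 4, those of the GAGA and CA repeats. AP-1 and GATA calls against promoters were lost among the 2398 strongest (adjusted exact p = 0.11 and 0.076), and the AGGTCA call without replicate 3 (0.26). At 100 bp the forkhead hexamer passed against promoters (15.7% against 10.8%, adjusted exact p = 8.1e-04). The share of peaks among the strongest of replicate 3 was 66.3% with an overlap of at least 50% of the peak, 69.0% with summits within 100 bp and 98.0% in the complete list, and of replicate 4 it was 70.3% with that overlap and 99.7% in the complete list. The share in a first intron was 62.6% by the longest transcript and 83.3% among the 2398 strongest, and genes holding a peak numbered 340 there. Rebuilt from replicate 4 alone (without replicate 3) the set had 914 peaks, and from replicate 3 alone 966. Counting transposable element insertions as genes, chosen after seeing the data, gave 926. No paired analysis was possible because there was 1 group. Depth is unknown, so no limit from it could be set; peak numbers limit the comparison with the 320 intronic peaks beyond 5 kb.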

Other observations

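The windows of lncRNA:CR32773 on X and of Ndfip and Krn on 3L share a run of 14 bases, acttgagtaaatat, within 15 bp of both summits. The run was picked out after both windows were seen, so its frequency carries no test. It was in 2 of the 896 windows of 200 bp, in 0 of the 320 intronic peaks beyond 5 kb, in 0 of the 3086 promoter peaks and in 0 of the 6301 weaker intronic regions. Its inner 9 bases, tgagtaaat, were in 6 (0.670%, 0.246 to 1.45%), 1, 10 (0.324%) and 23 (0.365%) of these sets in the same order. The 6 include the 2 windows from which the run was picked, so the shares are not on an equal footing.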
